A study of Mus musculus with 12 samples.

Results

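The 10 genes described here are the MHC class II genes and their closest partners: H2-Ab1, H2-Aa, H2-Eb1, Cd74, H2-DMa, H2-DMb1, H2-DMb2, H2-Oa, H2-Ob and Ciita. They were chosen by gene symbol among the 17920 genes listed in every library, and all 10 were among the 13735 genes with at least 0.5 FPKM (fragments per kilobase of transcript and per unit of library depth) in at least 3 of the 12 libraries. Lung tissue came from male BALB/c mice of 6 to 8 weeks and 20 g, and polyadenylated RNA was sequenced with 1 library per mouse and 3 mice per group. The control group had no stated treatment. The LPS group had lipopolysaccharide, a cell wall component of Gram-negative bacteria that serves as a model of lung injury, as 50 µL at 1 µg/µL. The bLF group had daily bovine lactoferrin, a glycoprotein of milk that binds iron, dosed at 200 mg/kg, and the LPS+bLF group had both. Tissue was taken 14 days into the model from 3 of the 6 mice per group. The labels do not give the route or the day of LPS.

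MHC class II molecules are pairs of an alpha and a beta chain that show peptides from the endosome to CD4 T cells. New chains assemble around the invariant chain, encoded by Cd74, which fills the peptide groove until endosomal proteases cut it down to a short remnant. H2-DM then exchanges the remnant for a peptide, and H2-DO, found mainly in B cells, binds H2-DM and restrains it. Ciita encodes the coactivator that these promoters depend on. It binds no DNA itself and docks on the factors that hold the X box (the RFX complex) and the Y box (NF-Y). In lung, dendritic cells, B cells and macrophages carry class II, and alveolar type 2 cells, the surfactant-making epithelial cells, carry it too.

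The promoter stretches below are shown because these genes are known to share the X and Y boxes that Ciita acts through. RefSeq windows from 250 bases before to 50 bases after a gene start (GRCm38.p6) were at hand for 7 of the 10 genes, and H2-Ab1, Cd74 and Ciita had none in the table. The capitals mark GNAAC, the core letters of the X box, and TGATTGG, the Y box letters. Each stretch is written 5′ to 3′ on the gene's own strand.
H2-Aa, chr17:34287863-34287910, minus strand: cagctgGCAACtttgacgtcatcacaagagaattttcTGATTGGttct
H2-Eb1, chr17:34305770-34305816, plus strand: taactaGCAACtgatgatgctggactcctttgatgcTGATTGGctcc
H2-DMb1, chr17:34153091-34153138, plus strand: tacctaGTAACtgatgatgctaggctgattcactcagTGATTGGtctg
H2-Oa, chr17:34092297-34092344, plus strand: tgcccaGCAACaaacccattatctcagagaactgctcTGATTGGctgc
H2-Ob, chr17:34238812-34238856, plus strand: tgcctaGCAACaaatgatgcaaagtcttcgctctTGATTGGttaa
H2-DMb2, chr17:34145118-34145167, plus strand: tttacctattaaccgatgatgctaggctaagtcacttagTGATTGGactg
GNAAC followed after 20 to 27 bases by TGATTGG was present in 5 of the 7 genes, against 0.201% of 32851 promoter windows of the same length (66 windows). The TGATTGG letters, searched on both strands, were in 6 of the 7 genes and in 7.82% of all windows, and GNAAC was in 84.8% of all windows. In H2-DMb2 the Y box letters stood without the paired X letters at that spacing, and neither window of H2-DMa held TGATTGG. The H2-DMa windows (34122582 to 34122881 and 34125268 to 34125567) lie inside the gene's span of 34119693 to 34139101. Starts elsewhere in that span were not searched, so H2-DMa is not shown to lack the boxes. The letters were chosen with these sequences in view, and a match is a description of sequence and not of factor binding.

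H2-Ab1, H2-Aa, H2-Eb1, H2-DMa, H2-DMb1, H2-DMb2, H2-Oa and H2-Ob lie within 224 kb of chromosome 17 (34092379 to 34316674), and Ciita lies on chromosome 16 (10480014 to 10531064). H2-Oa overlaps a long noncoding RNA gene, BC051537, and H2-DMa overlaps Brd2. Since the strandedness of the libraries was not given in the sources used here, reads from overlapping genes on opposite strands may not be told apart. H2-DMb1 and H2-DMb2 are near copies: their reference transcripts were 92.8% identical over 1231 aligned bases, and 27.2% of the 50-base windows of H2-DMb1 were also found in H2-DMb2. The split of reads between the pair is therefore uncertain.

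Library totals ran from 16714327 to 17820645 counts, so depth was close to even. Sftpc, which encodes a surfactant protein of alveolar type 2 cells, ranged from 43000.33 to 166275.63 FPKM, so that marker was abundant in every library. LPS replicate 1 stood apart: 3067 genes were at 0, against 1499 to 1963 in the other 11 libraries, and its median correlation with them was 0.884, against 0.918 to 0.973. LPS+bLF replicate 2, the next lowest at 0.918, carried lymphoid transcripts: Glycam1, made in the high endothelial venules of lymph nodes, was at 70.93 FPKM there, at 0.44 in bLF replicate 1 and at 0 in the other 10 libraries. The 6 comparisons of the 10 genes were also fitted with either library left out. In whole tissue, a change in the number of class II-bearing cells and a change in RNA per cell cannot be told apart.

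H2-Ab1, the beta chain of the I-A molecule, was among the most abundant of the 10. Its level was 655.89, 495.33 and 654.11 FPKM in control replicates 1 to 3, and 876.13, 1022.49 and 833.07 FPKM in bLF. It was 271.49, 1420.76 and 1614.27 FPKM in LPS, and 1458.96, 1125.55 and 1389.86 FPKM in LPS+bLF. LPS replicate 1 was thus the lowest of the 12 libraries and LPS replicate 3 the highest, while every bLF and every LPS+bLF library lay above every control. The order of the group means was control, bLF, LPS and LPS+bLF, from 601.8 ± 92.19 to 1325 ± 176 FPKM (SD), and the ranges of LPS overlapped those of both its neighbours.

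H2-Aa, the alpha chain that pairs with H2-Ab1, showed the same extremes within LPS. It was at 504.21, 412.89 and 670.98 FPKM in control, 171.83, 1232.25 and 1196.31 FPKM in LPS, 557.00, 695.60 and 634.29 FPKM in bLF, and 1197.60, 804.64 and 920.97 FPKM in LPS+bLF. All 3 LPS+bLF libraries lay above the controls, while the bLF and control ranges overlapped. H2-Eb1, the beta chain of I-E, was at 89.12, 71.59 and 114.44 FPKM in control, 27.97, 224.80 and 271.50 FPKM in LPS, 84.94, 127.05 and 97.14 FPKM in bLF, and 196.46, 136.14 and 126.18 FPKM in LPS+bLF. It spanned 9.71-fold over the 12 libraries, with LPS at both ends.

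The partner of H2-Eb1, the I-E alpha chain H2-Ea, is annotated as a transcribed pseudogene because the C57BL/6 reference carries a broken copy, whereas BALB/c mice make the chain. BALB/c class II alleles differ from that reference, and the effect of this on read assignment was not tested. It was well detected here, at 94.64 to 166.43 FPKM in control, 20.05, 259.71 and 338.70 FPKM in LPS, 103.55 to 141.27 FPKM in bLF and 145.57 to 248.47 FPKM in LPS+bLF. Like the 10 chosen genes, it was lowest in LPS replicate 1. H2-Eb2, a second E beta gene, did not pass 0.48 FPKM in any library.

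Cd74, the invariant chain, was the most abundant of the 10. It was at 1349.47, 705.87 and 1510.81 FPKM in control, 665.48, 2699.60 and 3043.49 FPKM in LPS, 1504.55, 1930.76 and 1593.14 FPKM in bLF, and 2512.02, 1737.85 and 2014.67 FPKM in LPS+bLF. All LPS+bLF libraries were above all controls. The LPS group again held both the lowest and the highest library.

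The peptide exchange factor H2-DM is made of H2-DMa and an H2-DMb chain. H2-DMa was at 33.13, 33.03 and 43.46 FPKM in control, 6.21, 61.81 and 68.30 FPKM in LPS, 33.67, 46.64 and 41.47 FPKM in bLF, and 60.30, 39.32 and 46.74 FPKM in LPS+bLF. H2-DMb1 was at 38.28, 40.11 and 55.22 FPKM in control, 5.12, 79.75 and 96.61 FPKM in LPS, 50.09, 61.54 and 56.64 FPKM in bLF, and 79.67, 64.27 and 59.68 FPKM in LPS+bLF. Both were far below their control range in LPS replicate 1 and above it in the other LPS libraries. H2-DMb1 had the widest span of the 10, 18.9-fold, and rested on 90.89 estimated counts in LPS replicate 1. H2-DMb2 was at 21.99, 21.63 and 31.46 FPKM in control, 12.32, 47.33 and 54.75 FPKM in LPS, 23.58, 31.35 and 23.69 FPKM in bLF, and 44.76, 46.04 and 32.59 FPKM in LPS+bLF. In LPS replicate 1 it lay above H2-DMb1, whereas in the other 11 libraries H2-DMb1 was the higher of the pair.

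The H2-DO chains, H2-Oa (alpha) and H2-Ob (beta), had their highest levels elsewhere. H2-Oa was at 4.71, 4.60 and 7.75 FPKM in control, 2.60, 9.14 and 9.31 FPKM in LPS, 4.65, 6.46 and 2.93 FPKM in bLF, and 11.94, 18.65 and 11.35 FPKM in LPS+bLF. Its 3 LPS+bLF libraries were the 3 highest of the 12. H2-Ob was the least abundant chain, at 0.76, 1.41 and 1.84 FPKM in control, 0.58, 1.15 and 1.44 FPKM in LPS, 1.10, 1.20 and 0.67 FPKM in bLF, and 1.81, 3.57 and 1.25 FPKM in LPS+bLF. Both peaked in LPS+bLF replicate 2, and H2-Ob rested on 23 to 152 counts per library.

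Ciita, the coactivator gene, was at 1.38, 1.57 and 1.43 FPKM in control, 0.40, 1.93 and 3.01 FPKM in LPS, 1.42, 1.28 and 1.23 FPKM in bLF, and 1.82, 2.01 and 1.88 FPKM in LPS+bLF. The 3 LPS+bLF libraries lay close together and above every control and bLF library. The LPS libraries spread over 7.53-fold, which is also the whole range of the gene.

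**Figure D1:**
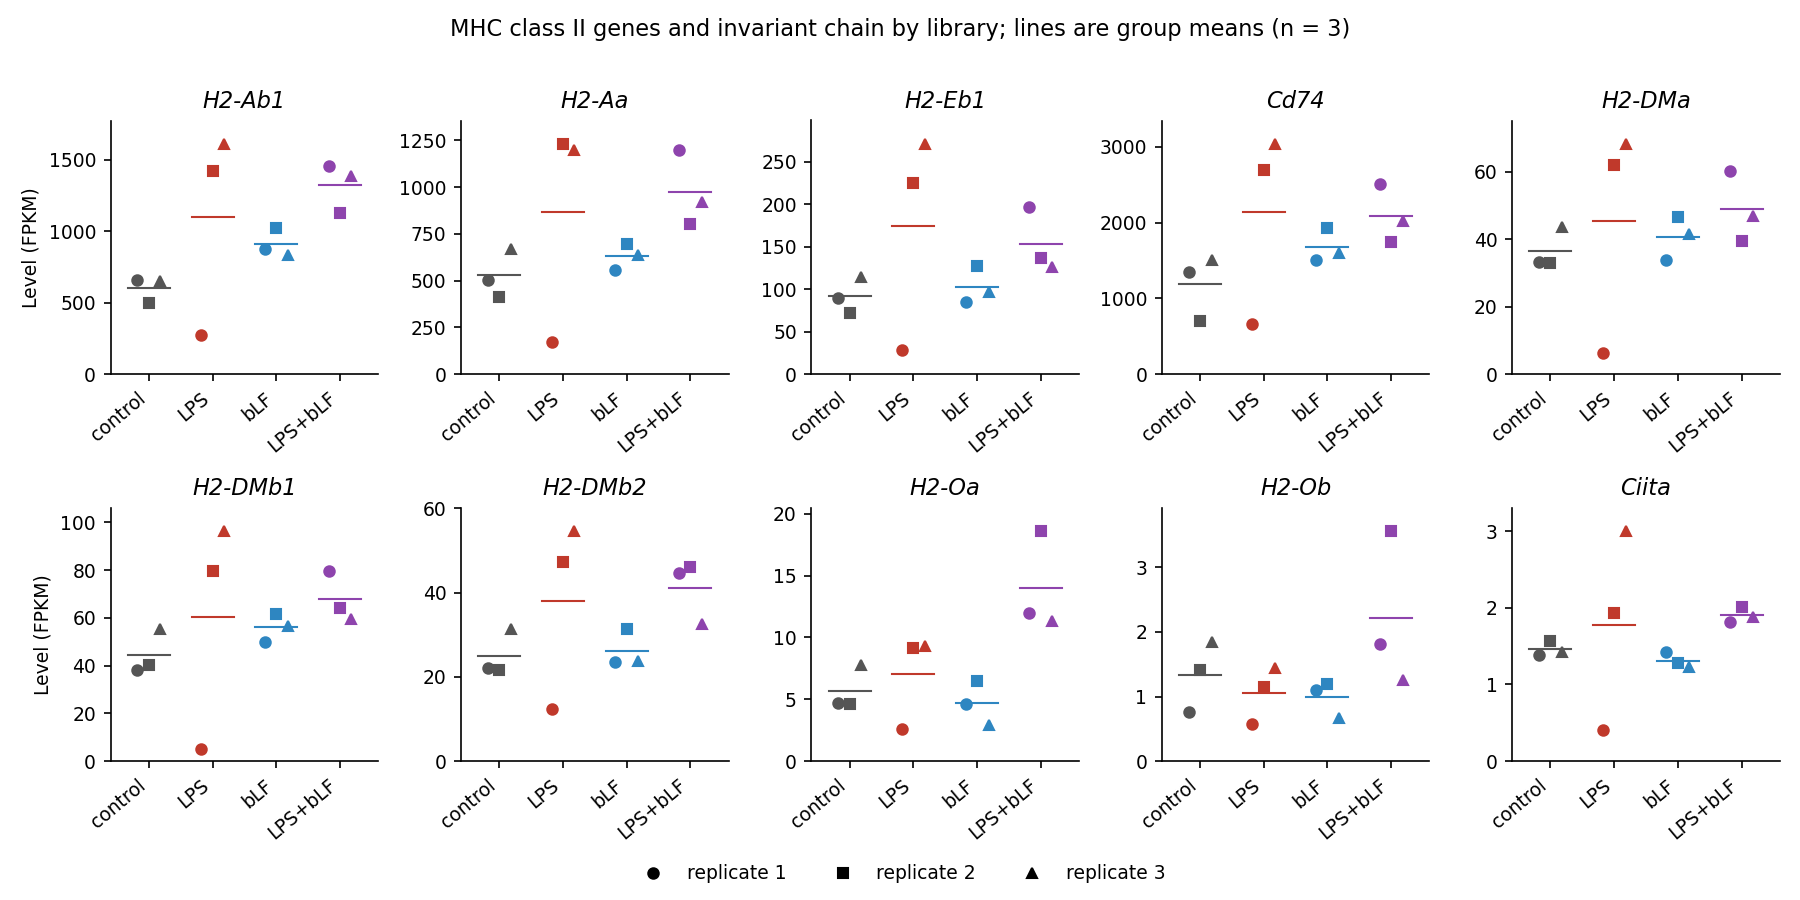
Level of each of the 10 genes in FPKM (vertical axis, from 0) in the 4 groups (horizontal axis). Points are libraries, shaped by replicate, and lines are means of 3; LPS replicate 1 is the lowest point in all 10 panels, while 8 of the 10 genes have every LPS+bLF library above every control.

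LPS replicate 1 held the lowest value of all 10 genes, between 0.115 (H2-DMb1) and 0.56 (Cd74) of the control mean, with a median of 0.379. The other 2 LPS libraries had medians of 1.84 and 2.18 times the control mean. LPS replicate 3 held the highest value of 7 genes and LPS replicate 2 that of H2-Aa, whereas LPS+bLF replicate 2 held that of H2-Oa and H2-Ob. Medians in LPS+bLF were 1.94, 1.50 and 1.36 times the control mean, and in bLF 0.957, 1.30 and 1.10 times. The range within LPS was wider than any difference between group means in FPKM, except for H2-Oa and H2-Ob.

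The comparison of LPS with control asks how the class II genes stood after LPS. Fitted levels were higher in LPS for 9 of the 10 genes (45.8% of all tested genes), with a median log2 fold change of 0.51 against -0.04 over all tested genes, and H2-Ob was lower at -0.34 ± 0.49 (SE). H2-Ab1 was 1.82-fold higher (log2 fold change 0.87 ± 0.43, adjusted p = 0.684) and Cd74 was 1.81-fold higher (0.86 ± 0.42, adjusted p = 0.684). H2-Eb1 was at 0.91 ± 0.54 and H2-Aa at 0.70 ± 0.48. The H2-DM chains were at 0.29 to 0.61, H2-Oa at 0.31 ± 0.43 and Ciita at 0.27 ± 0.46. None of the 10 passed the adjusted threshold of 0.05 (edgeR; 0.0% of all 13735 genes did), and 0 had an unadjusted p under 0.05, against 7.14% of all genes. DESeq2 called 139 genes and limma 2, none of them among the 10.

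The result changed without LPS replicate 1. In that fit, edgeR called 25 genes (0.182%), and H2-Ab1 was among them at 1.30 ± 0.16 (adjusted p = 0.0209). H2-Eb1 then stood at 1.40 ± 0.24 (adjusted p = 0.0567) and H2-Aa at 1.16 ± 0.20 (adjusted p = 0.0594). Cd74 was at 1.25 ± 0.26, H2-DMb2 at 0.98 ± 0.21, H2-DMb1 at 0.94 ± 0.19, H2-DMa at 0.77 ± 0.19 and Ciita at 0.71 ± 0.21. H2-Oa (0.66 ± 0.36) and H2-Ob (-0.10 ± 0.51) were the 2 genes without an unadjusted p under 0.05. That left 8 of 10 higher at that level, against 3.83% of all genes, and 9 of 10 had both remaining LPS libraries above every control, against 10.8%. This omission leaves 2 LPS mice. It removes the library that was lowest for all 10 genes, which by itself raises their LPS means and narrows their pooled errors. In every fit without this library, the share over all genes makes no allowance for that, and the 10 genes vary together.

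Under bLF without LPS, the median log2 fold change from control was 0.17 (all genes -0.03), 7 genes were fitted higher (45.4% of all genes) and 3 lower, 0 of 10 were called by edgeR (0.0% of genes) and 0 had an unadjusted p under 0.05 (1.38%). DESeq2 called 1 gene and limma 0, none of them among the 10. H2-Ab1 was the highest at 0.63 ± 0.42, a 1.54-fold difference (adjusted p = 1), followed by Cd74 at 0.54 ± 0.41. H2-Ab1 was the 1 gene of the 10 with every bLF library above every control in FPKM, against 2.21% of all genes. H2-Oa (-0.26), H2-Ob (-0.43) and Ciita (-0.13) were the 3 fitted lower. LPS replicate 1 enters the pooled error here too: without it the median was again 0.17, and 2 of 10 had an unadjusted p under 0.05 and were higher, against 1.97% of genes, with adjusted p from 0.959 to 0.969. H2-Ab1 was at 0.62 ± 0.15 in that fit.

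In LPS+bLF against control, all 10 genes were fitted higher (50.3% of all genes), with a median log2 fold change of 0.78 against 0.00 over all genes. Every LPS+bLF library exceeded every control for 8 of the 10, against 3.91% of tested genes. The exceptions were H2-DMa and H2-Ob. On depth-scaled counts with TMM factors, which correct for differences in library composition, the count was 9 of 10 against 6.65%. Without LPS+bLF replicate 2 it was 9 of 10 in FPKM, against 7.32%. H2-Oa was 2.56-fold higher (1.36 ± 0.43) and H2-Ab1 2.28-fold (1.19 ± 0.43), both with an adjusted p of 0.832. H2-Aa was at 0.93 ± 0.49, Cd74 at 0.87 ± 0.42, H2-Eb1 at 0.79 ± 0.54, and H2-DMb2 and H2-Ob at 0.77. H2-DMb1 (0.65 ± 0.64), H2-DMa (0.45 ± 0.51) and Ciita (0.43 ± 0.46) were lowest. Without LPS+bLF replicate 2, H2-Ob was at 0.20 ± 0.47 and H2-Oa at 1.06 ± 0.46. None was called by edgeR (0.0% of genes), DESeq2 (13 genes called) or limma (0), and 2 of 10, H2-Oa and H2-Ab1, had an unadjusted p under 0.05, against 4.81%. The spread of LPS replicate 1 enters the pooled error of this comparison. Without it the fitted differences were nearly the same (median 0.78) and 9 of 10 had an unadjusted p under 0.05 and were higher, against 6.31% of genes, with adjusted p from 0.165 to 0.455. Since the 10 genes share that low library and vary together, these are not separate results.

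**Figure D2:**
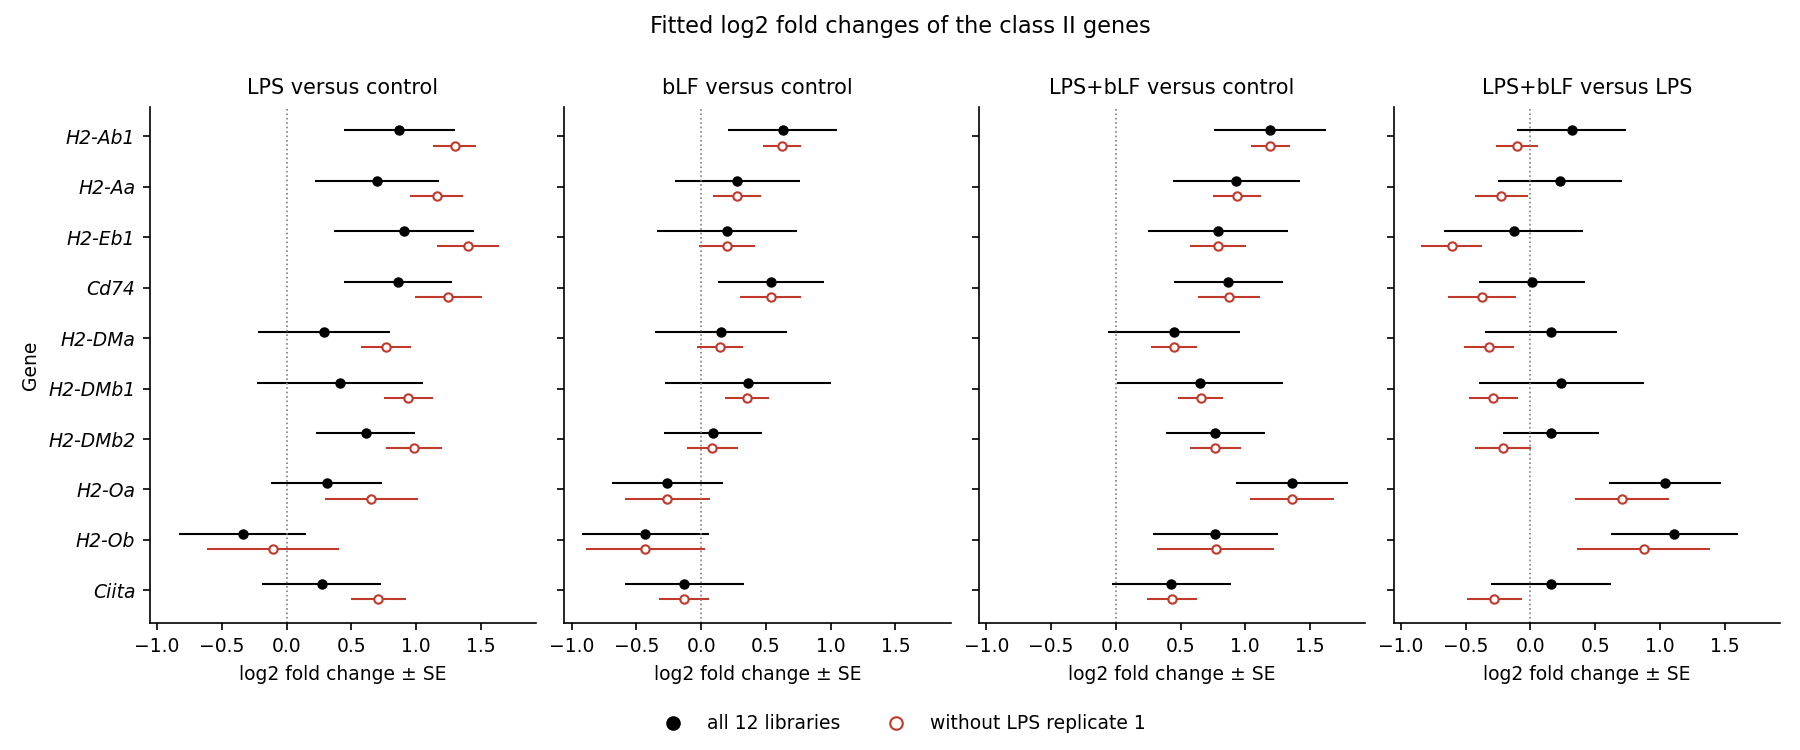
Fitted log2 fold change ± SE (horizontal axis) of the 10 genes in 4 comparisons, with all 12 libraries (filled) and without LPS replicate 1 (open). Leaving that library out moves H2-Ab1 in LPS versus control from 0.87 to 1.30 and narrows the errors, and in LPS+bLF versus LPS it moves 7 genes from above to below 0.

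LPS+bLF against LPS asks whether bLF altered levels in LPS-treated mice. Of the 10, 9 were fitted higher (47.9% of all genes), the median log2 fold change was 0.20 (all genes -0.02), and the classical chains, Cd74, the H2-DM chains and Ciita lay between -0.13 and 0.32. The H2-DO chains were the highest. H2-Oa was 2.06-fold higher (1.04 ± 0.43, adjusted p = 0.689), the 1 gene of the 10 with every LPS+bLF library above every LPS library (4.15% of all genes). H2-Ob was 2.15-fold higher (1.11 ± 0.49, adjusted p = 0.689), with overlapping ranges. These 2 of 10 had an unadjusted p under 0.05, against 6.92% of all genes, and 0 were called by edgeR (0.0%), DESeq2 (7 genes called) or limma (0). Without LPS replicate 1 the median was -0.25, with 8 of the 10 genes fitted lower, and 5 of 10 were below LPS in every library, where 24.8% of all genes were. H2-Ab1 was then at -0.10 ± 0.16 and Cd74 at -0.37 ± 0.26, and 1 of 10 had an unadjusted p under 0.05 and was lower, against 4.16% of genes. Without LPS+bLF replicate 2, H2-Oa was at 0.75 ± 0.46 and H2-Ob at 0.54 ± 0.47. Without both they were at 0.41 ± 0.35 and 0.30 ± 0.45.

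LPS+bLF against bLF asks what LPS added in bLF-treated mice. All 10 were fitted higher (52.0% of all genes), with a median log2 fold change of 0.58 (all genes 0.01). Every LPS+bLF library was above every bLF library for H2-Ab1, H2-Aa, H2-DMb2, H2-Oa, H2-Ob and Ciita, which is 6 of 10 against 5.13% of tested genes. H2-Oa was 3.06-fold higher (1.62 ± 0.43) and H2-Ob 2.29-fold (1.20 ± 0.49), each with an adjusted p of 1. When LPS+bLF replicate 2 was left out, H2-Ob was at 0.63 ± 0.47 and H2-Oa was at 1.32 ± 0.46. edgeR called 0 genes (0.0%), and 2 of the 10, H2-Oa and H2-Ob, had an unadjusted p under 0.05, against 2.66% of genes. Without LPS replicate 1, which is in neither group but enters the pooled error, the median was again 0.58 and 7 of 10 had an unadjusted p under 0.05 and were higher, against 3.66% of genes, with adjusted p from 0.664 to 0.817. A fit of these groups alone also gave 7 of 10 with an unadjusted p under 0.05, against 928 of all 13735 genes in either direction. DESeq2 called 2 genes and limma 0, none of them among the 10.

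The interaction, which is the bLF difference with LPS minus that without, tests whether the bLF response differed with LPS. H2-Ob was at 1.54 ± 0.69 and H2-Oa at 1.30 ± 0.60, and the other 8 genes lay between -0.52 and 0.30, with an adjusted p of 1 for all 10. edgeR called 0 genes (0.0%), DESeq2 1 and limma 0, none among the 10, and 1 of 10, H2-Ob, had an unadjusted p under 0.05, against 2.8% of genes. Without LPS+bLF replicate 2, H2-Oa was at 1.01 ± 0.63 and H2-Ob at 0.97 ± 0.63. In that fit 0 of 10 had an unadjusted p under 0.05, against 214 of all 13735 genes. Without LPS replicate 1, 8 of the 10 were fitted lower and the median was -0.49, against -0.02 with all libraries. Then 4 of 10 had an unadjusted p under 0.05 and were lower, against 1.76% of genes, 0 were higher at that level, and the adjusted p were 0.986 to 0.99. H2-Ob was at 1.31 ± 0.69 and H2-Oa at 0.97 ± 0.49 in that fit.

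Ratios of 2 genes within a library do not depend on library scaling and show whether class II genes differed unequally. An exact permutation test over the 4 groups was run on 6 ratios. Ciita to H2-Ab1 was higher in all 3 controls, at log2 -8.88, -8.29 and -8.83, than in the other 9 libraries, at -9.06 to -9.64. Its exact p was 0.0188, and 0.113 after Benjamini-Hochberg adjustment over the 6. Means were -8.67 in control, -9.32 in LPS and -9.43 in both bLF groups, and the 3 comparisons with control each had an exact two-sided p of 0.1, the smallest that 3 against 3 can give. The p over 4 groups was 0.0906 without control replicate 2 and 0.106 with a pseudocount of 1 in place of 0.01.

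The other 5 ratios had exact p from 0.186 to 0.435 over the 4 groups (adjusted 0.303 to 0.435). H2-Aa to H2-Ab1, 2 chains of the same molecule, was between 0.633 and 1.03 in linear terms over the 12 libraries. Cd74 to H2-Ab1 was between 1.43 and 2.45. The ratio of H2-DO to H2-DM, as H2-Oa plus H2-Ob over H2-DMa, was 0.087 to 0.27 in 10 libraries, 0.513 in LPS replicate 1 and 0.565 in LPS+bLF replicate 2. In the former H2-DMa was low, and in the latter H2-Oa and H2-Ob were high. H2-DMb1 to H2-DMb2, which was chosen after its values were seen, was 1.4 to 2.39 in 11 libraries and 0.416 in LPS replicate 1.

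**Figure D3:**
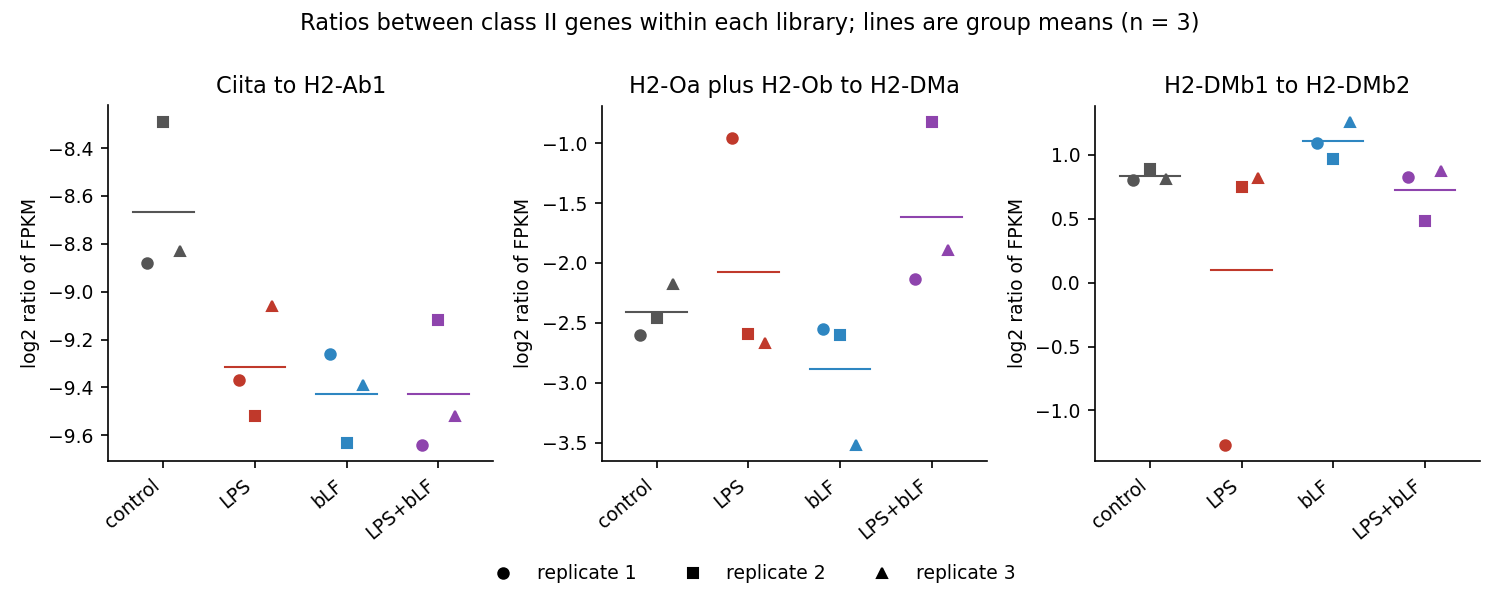
Log2 ratio of FPKM between class II genes within each library (vertical axis) by group. Points are libraries and lines are means of 3; the controls are the 3 highest points for Ciita to H2-Ab1, and LPS replicate 1 stands alone for H2-DMb1 to H2-DMb2 at -1.27.

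Several endosomal processing genes were high in LPS replicate 1, where the class II genes were low. Of 12 endosomal processing genes, 5 had an unadjusted p under 0.05 in LPS versus control, all higher (Ctss, Ctsz, Ctsd, Lgmn and Psap), against 5.52% of all tested genes, and 0 were called. Others went the other way: 9 of the 12 were fitted higher and 3 lower, Cst3 (-0.01), Ctse (-0.26) and Sppl2a (-0.29). These 3 had their lowest values in an LPS library, at 564.74, 0.6 and 3.57 FPKM. Ctss, the protease that makes the last cuts in the invariant chain, was at 97.23, 48.90 and 98.59 FPKM in control, 193.64, 204.45 and 284.69 FPKM in LPS, 82.96, 97.89 and 106.21 FPKM in bLF, and 153.27, 121.20 and 120.78 FPKM in LPS+bLF. All 3 LPS libraries, replicate 1 included, were above all others. Ctss was 1.57 ± 0.24 higher in LPS than control (adjusted p = 0.0845), and without LPS replicate 1 it was called at 1.60 ± 0.25 (adjusted p = 0.0469). Against LPS, LPS+bLF was at -0.84 ± 0.23 (adjusted p = 0.689). These 2 comparisons share the LPS libraries. Ctsz, another cysteine cathepsin, was at 0.72 ± 0.15 in LPS versus control (adjusted p = 0.144), and the aspartic protease Ctsd at -1.07 ± 0.43 in LPS+bLF versus LPS (adjusted p = 0.689), with 1557.38 FPKM in LPS replicate 1 and 505.93 and 643.55 in the other LPS libraries.

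Of the 14 genes for the promoter-bound complex and regulators of Ciita, 1 had an unadjusted p under 0.05 in LPS versus control, a share near the 7.14% of all genes. This was Spi1 (PU.1, a myeloid and B cell transcription factor), at 144.94, 101.44 and 106.30 FPKM in LPS against 66.54, 37.61 and 65.23 FPKM in control (1.15 ± 0.23, adjusted p = 0.13). Nfyc, a subunit of the Y box factor, was at -0.48 ± 0.29, with 9.98 FPKM in LPS replicate 1 against 23.89 to 33.38 FPKM in the other 11 libraries. In LPS+bLF versus LPS, Rfxank, an RFX subunit, was at 0.41 ± 0.17 and Nfyb at -0.53 ± 0.26, each with an adjusted p of 0.689.

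Interferon gamma is the classical inducer of Ciita. Of 15 tested genes of its axis, 2 had an unadjusted p under 0.05 in LPS versus control (7.14% of all genes) and 0 were called: the chemokine Cxcl10 at 2.13 ± 0.76 (adjusted p = 0.625) and Cd274 (PD-L1) at 0.69 ± 0.17 (adjusted p = 0.307). In LPS+bLF versus LPS, which shares the LPS libraries, they were at -2.31 ± 0.77 and -0.45 ± 0.17 (adjusted p = 0.689 each). Among 7 tested co-stimulation genes, Cd80, the ligand of CD28, was at 1.57 ± 0.42 in LPS versus control (adjusted p = 0.369), and Cd86 at 0.66 ± 0.43 in LPS+bLF versus LPS (adjusted p = 0.732). Of 10 traffic and turnover genes, Unc93b1 was at 0.79 ± 0.16 (adjusted p = 0.151) and Cd63 at 1.18 ± 0.46 (adjusted p = 0.655) in LPS versus control, and Ap1s2 at -0.47 ± 0.18 in LPS+bLF versus LPS (adjusted p = 0.689). Of 5 tested receptors on T cells, Icos was at 0.85 ± 0.34 and Ctla4 at 1.40 ± 0.66 in LPS versus control (adjusted p = 0.665 and 0.684). Cd4, the coreceptor for class II, was at 1.35 ± 0.74 in LPS+bLF versus LPS (adjusted p = 0.702), with 8.27 FPKM in LPS+bLF replicate 2 and 0.21 in LPS replicate 1.

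All 9 genes of class I presentation were fitted higher in LPS than control, as 45.8% of all genes were, with a median log2 fold change of 0.68 (all genes -0.04). Of the 9, 5 had an unadjusted p under 0.05, against 7.14% of all genes, and 0 were called. Psmb8, an immunoproteasome subunit, was at 0.68 ± 0.16 (adjusted p = 0.243) and Tap1, a peptide transporter subunit, at 0.77 ± 0.22 (adjusted p = 0.435). In LPS+bLF versus LPS, the class I heavy chains H2-D1 and H2-K1 were at -0.44 ± 0.27 and -0.39 ± 0.31 (adjusted p = 0.719 and 0.782). In LPS replicate 1 H2-K1 was at 929.13 FPKM, against 2606.46 and 3347.52 FPKM in the other LPS libraries, whereas Psmb8 was at 119.35, 133.18 and 141.91 FPKM in the 3.

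**Figure D4:**
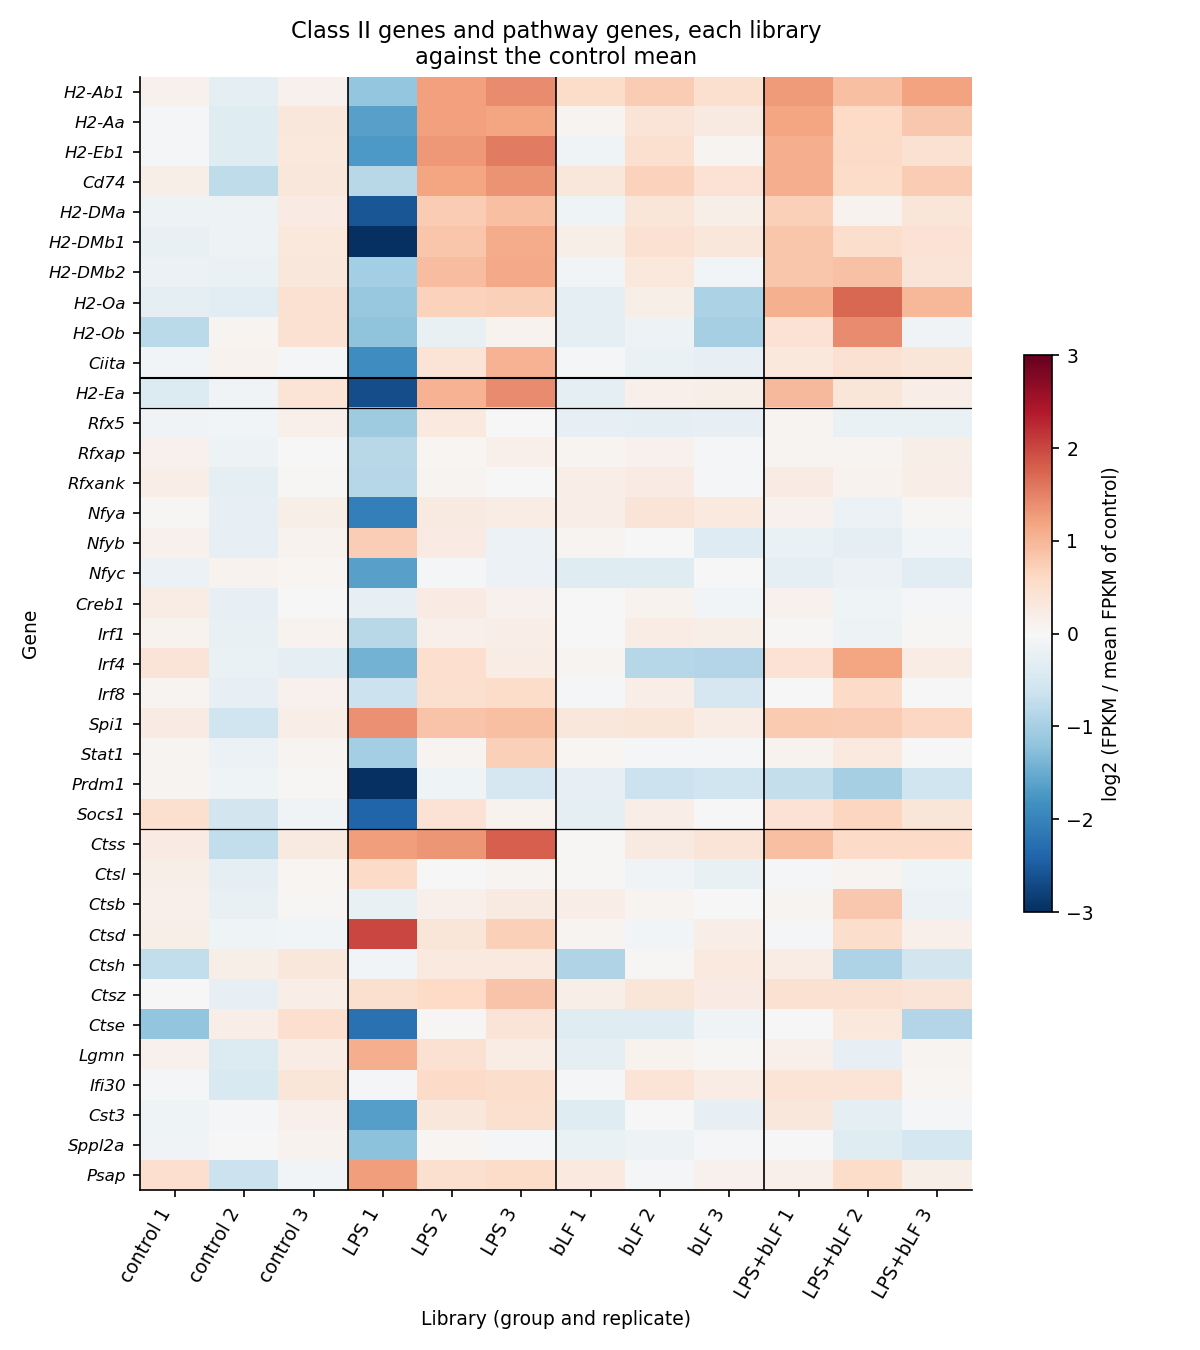
Log2 of each library's FPKM over the control mean (colour, ends of the scale at -3 and 3) for the 10 genes (top block), H2-Ea, the promoter and Ciita regulators, and the endosomal processing genes, by library (columns). The column of LPS replicate 1 is blue for all 10 class II genes and H2-Ea, and red for Ctss, Ctsd and Spi1. Other genes of the lower blocks differ, and Cst3, Ctse and Sppl2a have their lowest values in an LPS library.

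Markers of cells that could carry class II varied between the same libraries. The summed level of 14 B cell markers was 124.8 to 220.1 FPKM in control, 47.99 to 179.8 in LPS, 80.35 to 212 in bLF and 236.5 to 613.5 in LPS+bLF, with the lowest sum in LPS replicate 1 and the highest in LPS+bLF replicate 2. All 14 were highest in LPS+bLF replicate 2. In LPS replicate 1, 3 of the 14 were at 0, Ms4a1 among them, while Cd79a was at 25.81 FPKM. T cell markers (10 genes) had the same extremes, at 21.5 FPKM in LPS replicate 1 and 113 in LPS+bLF replicate 2, against 31.05 to 66.61 in the others. Lymph node stroma markers (6 genes) summed to 1062 FPKM in LPS+bLF replicate 2 and to 199.2 to 464.8 elsewhere. Of 5 markers of immature T cells of the thymus, Rag1, Rag2, Dntt and Ptcra did not pass 0.17 FPKM in any library. The fifth, Cd1d1, which other cells express too, was at 3.11 to 16.86 FPKM, with the highest value in LPS+bLF replicate 2. H2-Oa and H2-Ob peaked in the library with these highest lymphoid sums, and the part of B cells in the result was not tested.

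Markers of monocytes and interstitial macrophages (10 genes) summed to 163.1 to 224.2 FPKM in control, 275.4 to 428.8 in LPS, 209 to 219 in bLF and 207.8 to 326.9 in LPS+bLF. The sums of all LPS libraries were above those of all controls, and this held for replicate 1, where class II levels were the lowest. C1qa and Ly6c2 had the largest control means of the 10 genes, at 53.4 and 45.88 FPKM. Of the 10, 6 were above all controls in every LPS library, while Csf1r, Cx3cr1, Ccr2 and Ly6c2 overlapped. Csf1r fell to 12.75 FPKM in LPS, below its control minimum of 15.73. The sum of dendritic cell markers (12 genes) was 40.69 to 98.89 FPKM in control and 67.8 to 105.5 in LPS. It was 66.66 to 92.59 in bLF and 92.23 to 139 in LPS+bLF. Fscn1 and Tcf4 had the largest control means of the 12 genes, at 21.43 and 21.37 FPKM. In LPS replicate 1 the sum was 89.16, with Cd209a and Ccr9 at 0 and 2 of the 12 genes at their highest. The sum of alveolar macrophage markers (9 genes) was highest in LPS replicate 1, at 706.6 FPKM, against 358.1 to 698.8 in the others. Of the 9, 3 were highest there and 5 in LPS replicate 3. Car4 had the largest control mean of the 9, at 253.9 FPKM. Within LPS, Marco ran from 0.38 to 249.39 FPKM with a median of 1.31, and Siglecf from 0.22 to 2.09 FPKM. The Marco range alone is far wider than the gap between the highest sums. The sum of alveolar type 2 markers (10 genes) was lowest in LPS replicate 1, at 47030 FPKM. It was highest in the other 2 LPS libraries, at 154700 and 179800. Most of this sum was Sftpc, at 43000.33 FPKM in LPS replicate 1. Sftpd differed, with all LPS libraries (892.85 to 1060.05 FPKM) above all controls (652.00 to 856.86 FPKM). Each other gene of that list had its lowest value in an LPS library. The sum of NK cell markers (7 genes) was also lowest in LPS replicate 1, at 9.62 FPKM. It was 243.7 in LPS replicate 2, 209.9 in LPS replicate 3 and 53.31 to 95.68 in the remaining 9. The sum of neutrophil markers (8 genes) was highest in LPS replicate 1, at 1519 FPKM against 175.2 to 611.3. Of the 8, 4 were highest there, among them Retnlg, at 593.58 FPKM there and 18.64 to 39.87 elsewhere. S100a8, Cxcr2 and Csf3r were highest in control libraries, and Ltf in a bLF library. The part of these cell types in the class II levels was not tested.

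**Figure D5:**
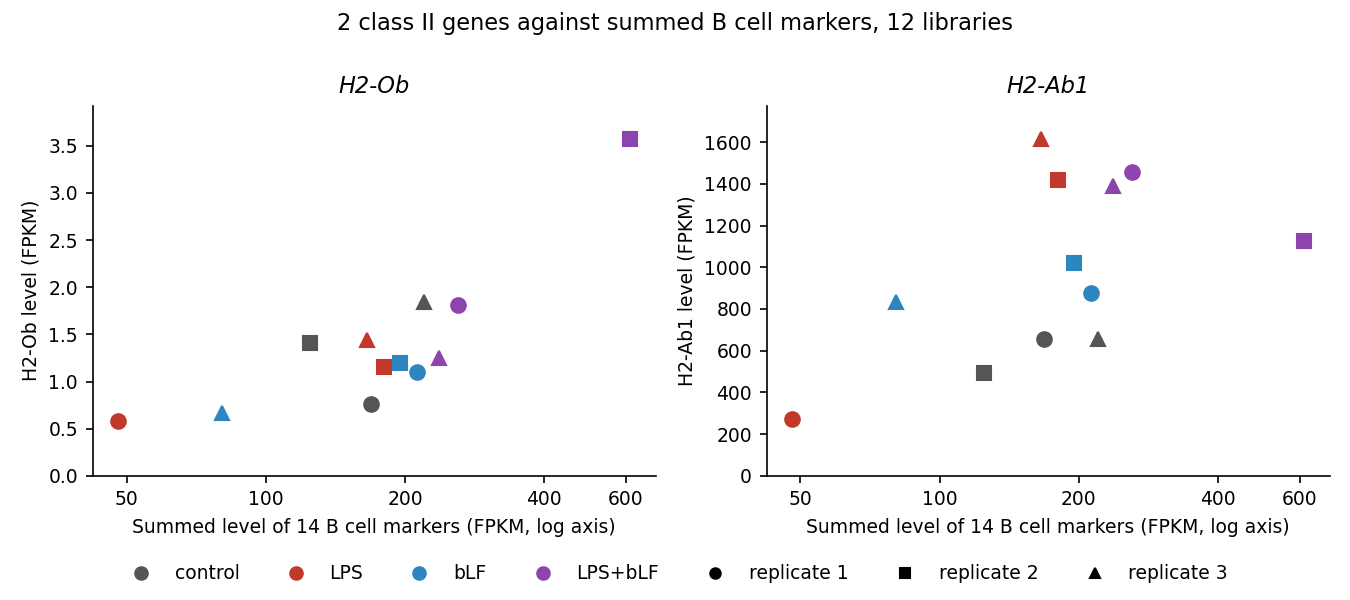
Level of H2-Ob (left) and H2-Ab1 (right) in FPKM against the summed level of 14 B cell markers in FPKM (log axis) in the 12 libraries. LPS+bLF replicate 2 (613.5) and LPS replicate 1 (47.99) are at the ends for H2-Ob, whereas H2-Ab1 is highest in LPS replicate 3 at a middle sum of 165.4.

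Pairwise correlations over the 12 libraries describe how alike the levels of the genes were, and all pairs share the same libraries and the low LPS replicate 1. On log2 values, H2-Ab1 had a Pearson r of 0.967 with H2-Aa, 0.948 with Cd74, 0.937 with H2-Eb1 and 0.848 with Ciita, but 0.739 with H2-Oa and 0.429 with H2-Ob. Without LPS replicate 1 these were 0.936, 0.930, 0.870, 0.675, 0.643 and 0.209. H2-Oa and H2-Ob had an r of 0.850 with each other, and 0.815 without it. The genes outside the 10 most like H2-Ab1 were Meis3 (r = 0.951), Mgl2 (0.940), Lsp1 (0.939), Bcl3 (0.934), Nkg7 (0.929), Csf2 (0.925), Itgb7 (0.918) and L1cam (0.908). Those most like H2-Ob were Fcrl1 (0.966), Btla (0.943), Cxcr5 (0.938), Tnfrsf13c (0.926), Spib (0.915), Fcer2a (0.914), Il4i1 (0.907) and Pou2af1 (0.906). Without the 2 libraries farthest from the median of the gene in question, r was 0.732 to 0.925 for the first 8 and 0.646 to 0.902 for the second 8.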

How the data were processed

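Per the file headers, the authors gave counts and FPKM by gene, with 1 table per library. The counts were taken as estimated counts as deposited, because fractions occurred at 4.118 to 5.91% of genes. They were rounded here. The deposited FPKM values were used as given for levels. Per the submitters' processing notes, HISAT2 2.1.0, RSEM 1.2.8 and mm10 are listed. Their roles, the annotation and strandedness are not given in the sources used here. Replicates were taken as separate mice, as the labels describe them.

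A floor of 0.5 FPKM in 3 or more libraries was set, and the remaining genes were tested in 1 edgeR 4.0.16 quasi-likelihood fit of 4 group means (TMM scaling, 8 residual degrees of freedom, R 4.3.3). Tests were two-sided, with Benjamini-Hochberg adjustment over 13735 genes and a threshold of 0.05. The SE was derived from the F statistic. Alternatives were other scalings, DESeq2 1.42.0, limma 3.58.1 on log2(FPKM + 1) or + 0.1, other filters, a robust fit, a fit of the compared groups, a replicate block, H2-DMb1 and H2-DMb2 summed, and each library left out. Ratios were log2 of FPKM + 0.01, with exact permutation over 369600 arrangements. Correlations used log2(FPKM + 1). Gene IDs matched RefSeq for 17869 of 17920 genes. The code was tested on simulated data.

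Named genes were the 10 class II genes, the 2 genes of each pathway list with the smallest p in LPS versus control and in LPS+bLF versus LPS, the markers of each cell type, mostly as sums, and the 8 genes with the highest correlation with H2-Ab1 and with H2-Ob. Genes named beyond this, the promoter letters, the H2-DMb1 to H2-DMb2 ratio and the fits without LPS replicate 1 and LPS+bLF replicate 2 together were chosen after seeing the data. The 10 genes and all lists were chosen with earlier results of these data known.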

Additional observations from a re-analysis of the deposited data

How the results depend on the processing

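With 3 mice per group, the SE of a pairwise log2 fold change of the 10 genes was 0.37 to 0.64, which limits what could be called. Of 554 fitted differences of the 10 genes under other settings, 544 kept their direction and side of the threshold and 10 reversed. Of 676 with libraries left out, 652 did, 22 reversed, and 2 passed the threshold (H2-Ab1 in LPS versus control, without LPS replicate 1 alone and without LPS+bLF replicate 2 as well). Both tallies held the interaction for H2-Oa and H2-Ob only, and included fits without a library from outside the groups compared. Across all 10 genes, the interaction had 5 fitted lower with all libraries and 8 without LPS replicate 1. The cause of each change was not tested.

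DESeq2 called 139 genes in LPS versus control, 7 when LPS+bLF was set against LPS, 13 against control and 2 against bLF, 1 for bLF versus control and 1 for the interaction, where edgeR called 0. limma on log2(FPKM + 1) called 2 in LPS versus control. Leaving out single libraries gave 0 to 25 genes in LPS versus control and 0 to 2 in LPS+bLF versus LPS, the highest of each without LPS replicate 1. Without LPS replicate 1 and LPS+bLF replicate 2 together, 32 were called in LPS versus control and 2 in the interaction.

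In LPS versus control, H2-DMa and H2-DMb1 reversed under limma, to -0.24 and -0.30 with a pseudocount of 1 and to -0.28 and -0.36 with 0.1, and Ciita to -0.09 with 0.1. With libraries left out, they ran from -0.16 to 0.77, from -0.16 to 0.94 and from -0.37 to 0.71, each lowest without LPS replicate 3 and highest without LPS replicate 1. In LPS+bLF versus LPS, Cd74 was at -0.03 both with upper-quartile scaling and with a mean of at least 5 FPKM, and H2-Eb1 at 0.32 and 0.33 under limma. With libraries left out, the values there ran from -0.10 to 0.71 for H2-Ab1, -0.23 to 0.55 for H2-Aa, -0.61 to 0.36 for H2-Eb1, -0.37 to 0.35 for Cd74, -0.32 to 0.58 for H2-DMa, -0.29 to 0.79 for H2-DMb1, -0.21 to 0.50 for H2-DMb2 and -0.28 to 0.78 for Ciita, each lowest when LPS replicate 1 was dropped and highest when LPS replicate 3 was. With LPS replicate 1 and LPS+bLF replicate 2 both dropped, H2-Ab1 was at -0.02, H2-Aa at -0.13, Cd74 at -0.28, H2-DMa at -0.21, H2-DMb1 at -0.27, H2-DMb2 at -0.33 and Ciita at -0.34. In bLF versus control, H2-DMb2 ran from -0.07 (without bLF replicate 2) to 0.25 (without control replicate 3).

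For the ratios, the exact p of Ciita to H2-Ab1 ran from 0.01 to 0.0906 with libraries left out and was 0.106 with a pseudocount of 1. That of Cd74 to H2-Ab1 ran from 0.0263 (without control replicate 2) to 0.501, and that of H2-Oa plus H2-Ob to H2-DMa from 0.025 (without LPS replicate 1) to 0.424.

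Same-numbered libraries did not deviate together: their correlations ran from -0.694 to 0.571, with 5 of 18 over 0.1, and 4 of 12 libraries were closest to their own number. With the replicate block, 0 genes were called in all 6 comparisons, and H2-Eb1 was at 0.08 in LPS+bLF versus LPS. A fit of the compared groups alone could not be made for the interaction.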
